A study of Rattus norvegicus with 16 samples.

Results

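Genes in use as markers of dentate granule cells were followed through 4 subfields of the rat hippocampus: Prox1 (ENSRNOG00000003694), Rfx3 (ENSRNOG00000014486), Pdyn (ENSRNOG00000026036), Rgs10 (ENSRNOG00000042592) and Calb1 (ENSRNOG00000007456), 5 of the 32883 genes in the count table. They were selected on measured values, as genes high in the dentate gyrus (DG) of these same libraries, so their DG levels against the CA levels are given as a description with no test, and only differences among CA1, CA2 and CA3 were tested. The animals were 4 male Wistar rats aged 3 months, for which no treatment is given. The granule cell layer of DG and the pyramidal cell layers of CA1, CA2 and CA3 were cut out by laser capture microdissection. Brain sections were stained with cresyl violet, and 4 libraries per subfield were numbered as replicates. Per the study's methods, dense packing of CA3-like cells marked CA2. Total RNA was sequenced and reads were counted per gene. Cut layers hold glia, vessel cells and interneurons beside the principal neurons.

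Totals per library ran from 3216512 counts in CA1 replicate 4 to 11933279 counts in CA3 replicate 2. A count of 0 allows up to 3 counts, which was 0.931 CPM (counts per 1000000 counts of the library, with library size corrected by the trimmed mean of M-values) in the smallest library and 0.260 CPM in the largest, for counting error only. In CA2, replicates 2 and 4 differed by less than sampling noise, at a chi-square over its degrees of freedom of 0.999 (11864 genes). In DG, replicates 2 and 4 were also near sampling noise, at 1.04 over 12602 genes but slightly above it (chi-square p = 0.00271), while every other pair of libraries of 1 subfield stood at 2.96 or above. Both pairs therefore entered as 1 sample per pair, which left 4 CA1, 3 CA2, 4 CA3 and 3 DG samples. Whether the columns of a pair come from the same rat or library was not tested. CA3 replicate 3 stood apart from the other CA3 libraries, at 47.2, 44.7 and 18.6 against replicates 1, 2 and 4, so the CA3 values of the 5 genes are given with and without it.

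Granule cells are the small, densely packed excitatory neurons of the dentate gyrus, which receive the perforant path and contact CA3 pyramidal cells through the mossy fibres. Prox1 encodes a homeodomain transcription factor needed for granule cells to form and to keep their fate instead of that of CA3 pyramidal cells, and Rfx3 encodes a winged-helix factor of the RFX family known for its role in genes of cilia. Pdyn encodes the precursor of the dynorphin peptides released from mossy fibres, Rgs10 a small GTPase-activating protein for Gi-class G alpha subunits, and Calb1 the calcium-binding protein calbindin-D28k, long known in granule cells and in part of the CA1 pyramidal cells.

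Marker lists were set beside the labels of the subfields. All 13 granule markers that could be matched by symbol, of 18 listed, had their highest mean in DG, and 2 of 2 CA1 markers were highest in CA1 and 3 of 3 matched CA3 markers in CA3. Of 3 matched CA2 markers, Cacng5 and Amigo2 were highest in CA2 while Ntf3 was highest in DG. Symbols other than that of Calb1 were available only for 288 genes that the study had itself chosen as subfield markers from these libraries. A listed gene could match only if it was already such a marker. These counts were thus largely fixed in advance and check no label. Lists for interneurons, glia, vessel cells and immature neurons matched 0 genes, and the share of such cells in each layer was not measured.

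RefSeq promoter sequences were available for 3 of the 5 genes, and the 250 bases before each start are shown because the 5 genes share a high DG level. Capitals mark the CCAAT motif, the TATA motif TATAAA, the GC box GGGCGG and the RFX motif GTTGCC (1 arm of the X-box), searched on both strands, so that a match on the reverse strand reads as its reverse complement. All 3 lie on the minus strand of build GRCr8: Rfx3 at chr1:235122423-235122672, Pdyn at chr3:137366504-137366753 and Rgs10 at chr1:192418078-192418327. No promoter entry was held for Prox1 or Calb1.
Rfx3: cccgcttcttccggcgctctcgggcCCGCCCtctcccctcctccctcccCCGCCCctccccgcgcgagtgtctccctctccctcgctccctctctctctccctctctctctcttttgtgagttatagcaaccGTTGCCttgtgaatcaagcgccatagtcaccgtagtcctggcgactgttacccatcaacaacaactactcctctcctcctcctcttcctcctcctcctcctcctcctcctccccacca
Pdyn: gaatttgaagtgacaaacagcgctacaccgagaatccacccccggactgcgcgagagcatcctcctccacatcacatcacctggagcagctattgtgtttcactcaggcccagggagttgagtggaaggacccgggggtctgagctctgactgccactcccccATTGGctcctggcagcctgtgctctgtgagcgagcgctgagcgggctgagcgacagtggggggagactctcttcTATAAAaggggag
Rgs10: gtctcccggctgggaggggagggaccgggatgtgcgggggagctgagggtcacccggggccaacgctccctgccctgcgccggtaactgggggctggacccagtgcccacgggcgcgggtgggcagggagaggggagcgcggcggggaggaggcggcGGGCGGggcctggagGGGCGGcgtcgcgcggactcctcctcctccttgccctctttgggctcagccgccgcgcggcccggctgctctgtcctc

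The Rfx3 window was 62.0% G and C, held GTTGCC 118 bases before the start and held GGGCGG on the reverse strand at 225 and 201 bases. The Pdyn window was 59.2% G and C, with CCAAT on the reverse strand at 87 bases and TATAAA at 13 bases. The Rgs10 window was 77.6% G and C, with GGGCGG at 93 and 78 bases. Among 33465 promoter windows of the same length, GTTGCC was present in 9.89%, GGGCGG in 30.5%, CCAAT in 34.0% and TATAAA in 12.9%. The E-box CANNTG, present in 65.5% of all windows, was found in Pdyn alone of these 3, 173 bases before the start, and was left in lower case. Its form CAGATG (13.96% of windows), the CRE TGACGTCA (1.59%) and its shorter form TGACG (18.2%) were in none of the 3. No motif of the list was shared by all 3 windows, and the matches are a description of letters only.

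Prox1 stood at 284, 361, 397 and 361 CPM in DG replicates 1 to 4. Its level was 2.28, 4.80, 3.37 and 4.34 CPM in CA1 replicates 1 to 4, and 3.61, 6.80, 5.16 and 11.6 CPM in the CA2 replicates. In CA3 it was 3.22, 9.79, 4.98 and 19.2 CPM in replicates 1 to 4. The lowest DG library lay 14.8-fold above the highest CA library, CA3 replicate 4, and replicate 1 was lowest in each subfield. Means were 3.70 CPM ± 1.12 in CA1 (SD, n = 4), 5.98 ± 2.88 in CA2 (n = 3), 9.29 ± 7.15 in CA3 (n = 4) and 347 ± 57.5 in DG (n = 3). The CA means made up 1.06%, 1.72% and 2.68% of the DG mean in CA1, CA2 and CA3. Without CA3 replicate 3 the CA3 mean was 10.7 ± 8.02 CPM (n = 3) or 3.09%, and without CA3 replicate 4 it was 1.73% of the DG mean. In the order CA1, CA2, CA3 from low to high the samples of neighbours overlapped, although CA1 was below CA2 in 4 of 4 libraries of the same number, with numbers 2 and 4 of CA2 counted as 1 sample elsewhere. In these bulk samples, fewer cells of a type and less RNA per cell cannot be told apart.

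Rfx3 stood at 266, 397, 331 and 403 CPM in DG replicates 1 to 4. It was 20.2, 24.1, 21.6 and 23.9 CPM in the CA1 replicates, and 14.4, 23.5, 22.4 and 24.7 CPM in the CA2 replicates. In CA3 it was 8.67, 18.0, 16.3 and 28.0 CPM in replicates 1 to 4. Replicate 1 was again the lowest library of each subfield, and the highest CA library was CA3 replicate 4, which the lowest DG library exceeded 9.50-fold. Mean levels were 22.4 CPM ± 1.89 in CA1 (SD, n = 4), 20.3 ± 5.17 in CA2 (n = 3), 17.7 ± 7.93 in CA3 (n = 4) and 332 ± 67.2 in DG (n = 3). Against its own DG mean Rfx3 kept 6.75%, 6.11% and 5.34% in CA1, CA2 and CA3, and without replicate 3 the CA3 mean was 18.2 ± 9.65 CPM (n = 3) or 5.48%. All 3 pyramidal subfields overlapped when libraries were not matched by number. Within libraries of the same number, CA1 was below CA3 in 1 of 4 and below CA2 in 2 of 4. Numbers 2 and 4 of CA2 are counted as 1 sample elsewhere.

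Pdyn stood at 222, 167, 169 and 168 CPM in DG replicates 1 to 4, with replicate 1 the highest. It was 11.2, 10.5, 8.84 and 11.5 CPM in the CA1 replicates, and 2.20, 5.39, 1.55 and 2.71 CPM in the CA2 replicates. In CA3 it was 1.24, 1.30, 0.636 and 5.85 CPM in replicates 1 to 4, the value of replicate 3 resting on 6 counts. Every CA1 library lay above every CA2 and CA3 library, while CA2 and CA3 overlapped. The lowest DG library lay 14.6-fold above the highest CA library, CA1 replicate 4. Mean levels were 10.5 CPM ± 1.18 in CA1 (SD, n = 4), 2.599 ± 1.30 in CA2 (n = 3), 2.26 ± 2.42 in CA3 (n = 4) and 186 ± 30.8 in DG (n = 3). As a share of the DG mean this was 5.64%, 1.40% and 1.21% in CA1, CA2 and CA3. Without replicate 3 the CA3 mean was 2.797 ± 2.65 CPM (n = 3) or 1.502%, and without replicate 4 the share was 0.5683%.

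Rgs10 stood at 267, 234, 206 and 222 CPM in DG replicates 1 to 4. It was 13.0, 11.3, 11.86 and 11.8 CPM in the CA1 replicates, and 22.3, 17.6, 20.04 and 18.2 CPM in the CA2 replicates. In CA3 it was 18.2, 24.6, 23.7 and 26.0 CPM in replicates 1 to 4. CA1 lay below CA2 and CA3 in every library, CA2 and CA3 overlapped, and the lowest DG library was 7.92-fold above the highest CA library, CA3 replicate 4. Mean levels were 11.99 CPM ± 0.748 in CA1 (SD, n = 4), 20.1 ± 2.18 in CA2 (n = 3), 23.1 ± 3.41 in CA3 (n = 4) and 234 ± 31.0 in DG (n = 3). Rgs10 thus kept 5.13%, 8.59% and 9.89% of its DG mean in CA1, CA2 and CA3, and without replicate 3 the CA3 mean was 22.9 ± 4.15 CPM (n = 3) or 9.81%.

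Calb1 stood at 313, 294, 287 and 286 CPM in DG replicates 1 to 4. It was 163, 144, 166 and 184 CPM in the CA1 replicates, and 29.2, 50.7, 36.8 and 41.2 CPM in the CA2 replicates. In CA3 it was 1.98, 11.2, 3.39 and 11.1 CPM in replicates 1 to 4. The 4 subfields did not overlap and ran DG, CA1, CA2, CA3 from high to low, but the lowest DG library was no more than 1.56-fold above the highest CA library, CA1 replicate 4. Mean levels were 164 CPM ± 16.1 in CA1 (SD, n = 4), 37.3 ± 8.39 in CA2 (n = 3), 6.90 ± 4.90 in CA3 (n = 4) and 297 ± 14.1 in DG (n = 3). The CA means were 55.4%, 12.6% and 2.33% of the DG mean in CA1, CA2 and CA3, and without replicate 3 the CA3 mean was 8.07 ± 5.27 CPM (n = 3) or 2.72%.

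**Figure D1:**
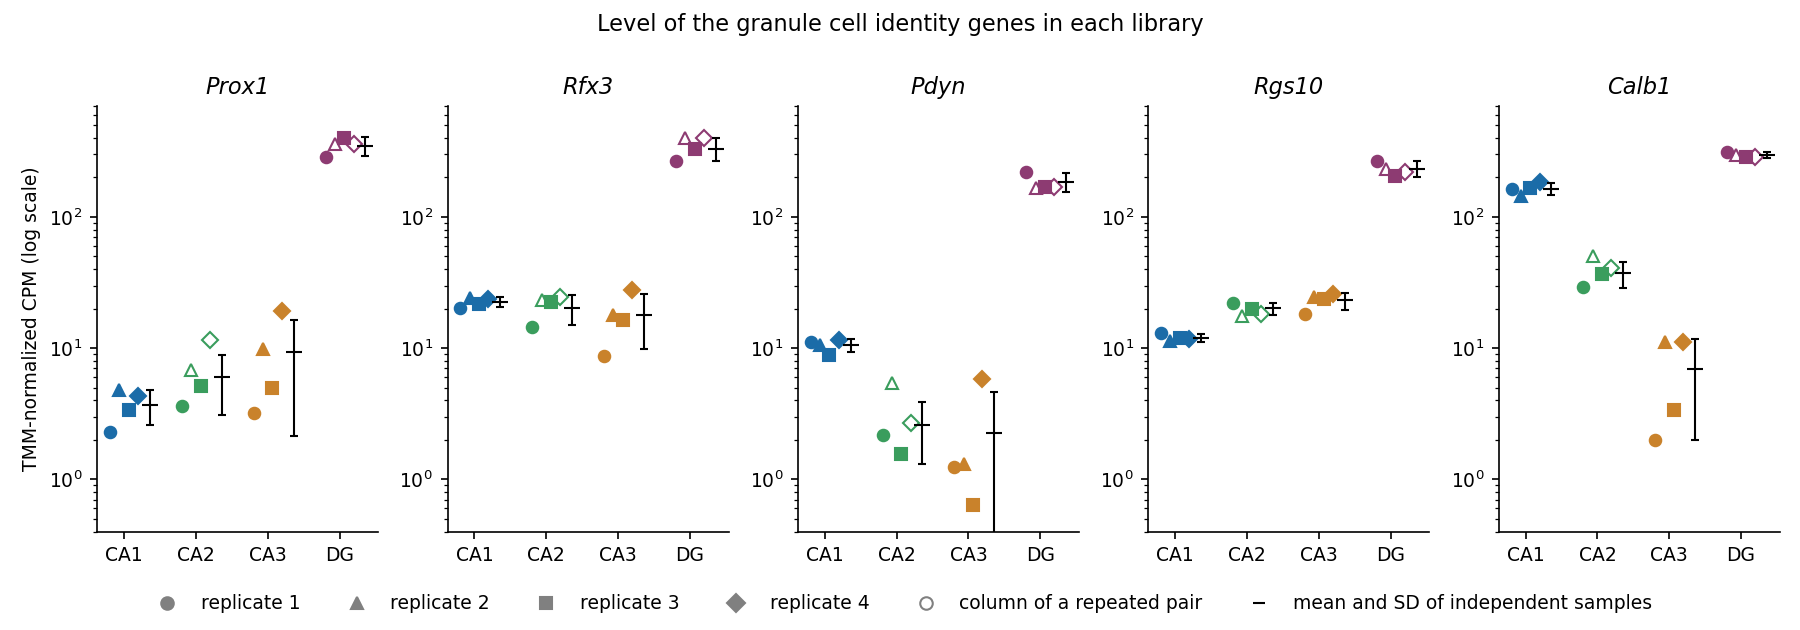
Level of each of the 5 genes in every library (CPM, log axis) by subfield, with bars for the mean and SD over 4, 3, 4 and 3 samples and open symbols for the columns counted together as 1 sample. The lower arm of the Pdyn bar in CA3 is drawn short of the full SD and still runs off the axis, because the SD (2.42 CPM) exceeds the mean (2.26 CPM). Calb1 is the gene whose CA1 libraries come closest to DG.

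For 5 of the 5 genes the lowest DG library lay above the highest CA library, a count that the selection of the genes fixes and from which nothing is read. Over the 17174 genes tested it held for 1619 (9.43%), and it held for 13 of the 13 matched granule markers. The study had chosen those 13 as subfield markers from these same libraries, so nothing is read from that count either. All 5 genes passed the filter of more than 10 counts over all libraries, which DG counts alone would have met. None of the 12 CA libraries held 3 counts or fewer of any of the 5 genes, so each was detected in every CA library.

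As percent of their own DG mean, the 5 genes kept a different order in each pyramidal subfield. Calb1 was highest in 4 of 4 CA1 samples and in 3 of 3 CA2 samples, whereas Rgs10 was highest in 4 of 4 CA3 samples. Prox1 was the lowest of the 5 in 4 of 4 CA1 samples, Pdyn was lowest in 2 and Prox1 in 1 of the 3 CA2 samples, and Pdyn was lowest in 4 of 4 CA3 samples. In CA3 replicate 3 the values were 1.44% for Prox1, 4.91% for Rfx3, 0.342% for Pdyn, 10.1% for Rgs10 and 1.14% for Calb1. Differences between one gene and another were not tested.

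**Figure D2:**
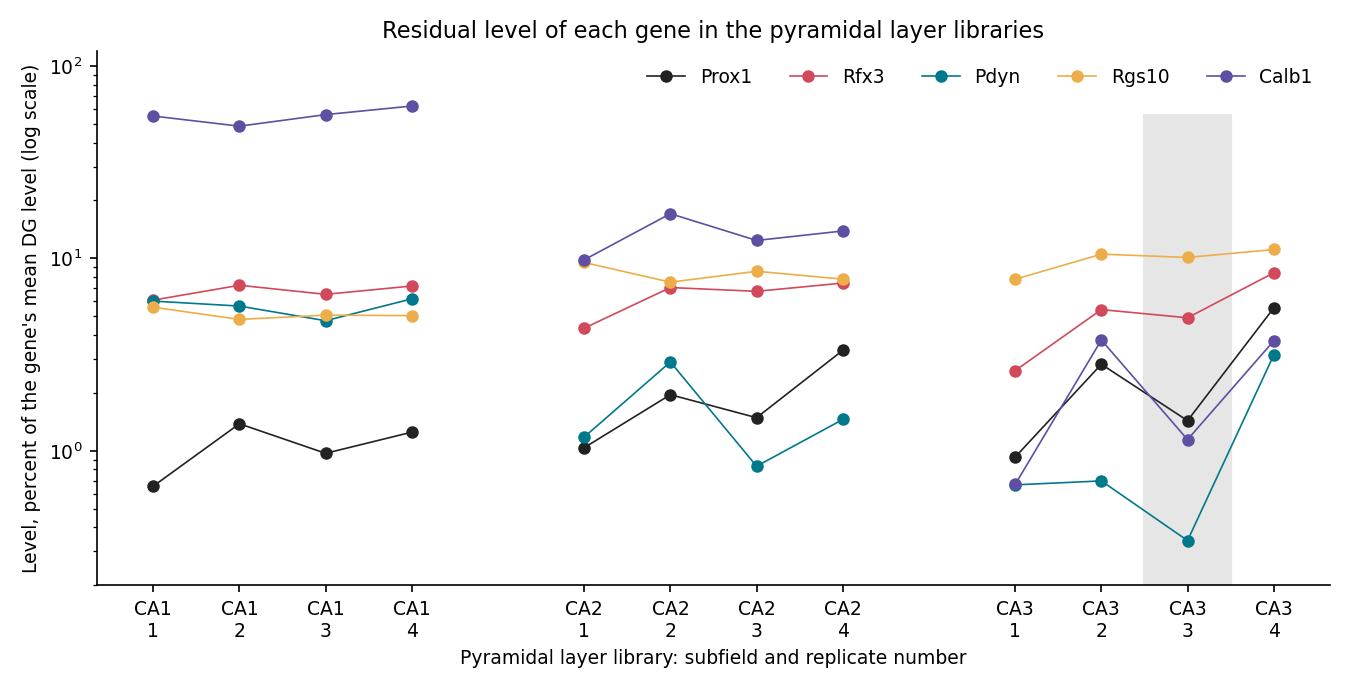
Level of each gene in every CA library as percent of its own DG mean (log axis), with CA3 replicate 3 on a grey band and lines only to guide the eye. Calb1 falls from 55.4% in CA1 to 2.33% in CA3 on average, Rgs10 runs the other way from 5.13% to 9.89%, and the Rfx3 means lie between 5.34% and 6.75%, with single libraries from 2.61% to 8.41%.

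The pyramidal subfields were compared with edgeR quasi-likelihood tests, with p adjusted by Benjamini-Hochberg over all 17174 genes. Such p-values measure spread between samples, and the subfields come from the same 4 rats. Between CA1 and CA2, 3 of the 5 genes passed an adjusted p of 0.05, against 14.3% of all genes tested (2458). Between CA1 and CA3, 4 of 5 passed against 24.8% (4253), and between CA2 and CA3, 1 of 5 passed against 7.65% (1313). With the replicate number as a block and all 16 columns as separate samples, the counts over all genes were 3850 between CA1 and CA2, 5713 between CA1 and CA3 and 2615 between CA2 and CA3, and 5 of the 5 genes passed between CA1 and CA3. The median log2 fold change of the 5 genes was 0.11, 0.35 and 0.24 in CA1 over CA2, CA1 over CA3 and CA2 over CA3, with medians over all genes of -0.0076, -0.00029 and 0.011.

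Calb1 was the 1 gene of the 5 that differed in each of the 3 comparisons. It was 4.40-fold higher by mean CPM in CA1 than in CA2, with a log2 fold change of 2.13 (SE 0.28, edgeR adjusted p = 1.49e-05), all 4 CA1 samples above all 3 CA2 samples. Between CA1 and CA3 the means differed 23.8-fold, with a log2 fold change of 4.57 (SE 0.30, edgeR adjusted p = 5.04e-10), again with 4 of 4 samples above 4. Between CA2 and CA3 they differed 5.40-fold, with a log2 fold change of 2.44 (SE 0.31, edgeR adjusted p = 1.44e-05), and 3 of 3 CA2 samples lay above every CA3 sample.

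Pdyn and Rgs10 both set CA1 apart from CA2 and CA3, in opposite directions. Pdyn was higher in CA1 than in CA2, with a log2 fold change of 1.999 (SE 0.39, edgeR adjusted p = 0.000905), and higher in CA1 than in CA3, at 2.39 (SE 0.37, edgeR adjusted p = 4.21e-05), in 4 of 4 CA1 samples each time. Leaving out 1 library gave 2.07 to 3.28 for Pdyn in CA1 over CA3, the highest without CA3 replicate 4. Rgs10 was lower in CA1 than in CA2, with a log2 fold change of -0.74 (SE 0.14, edgeR adjusted p = 0.000847), and lower in CA1 than in CA3, at -0.94 (SE 0.13, edgeR adjusted p = 1.31e-05), in 4 of 4 CA1 samples each time. Between CA2 and CA3 neither passed. Rgs10 had a log2 fold change of -0.20 with a 95% interval of -0.48 to 0.08 (edgeR adjusted p = 0.499). Pdyn had 0.39 with an interval of -0.60 to 1.39 (edgeR adjusted p = 0.766). Without CA3 replicate 4 the Pdyn value was 1.26 and passed (edgeR adjusted p = 0.0351, the lowest of a range up to 0.986 over the alternatives), so this call rests on 1 library.

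Prox1 was lower in CA1 than in CA3, with a log2 fold change of -1.30 (SE 0.42, 95% interval -2.17 to -0.43, edgeR adjusted p = 0.0262). The samples overlapped, but within libraries of the same number CA1 was below CA3 in 4 of 4 pairs, and with the replicate number as a block and all 16 columns as separate samples the value was -1.17 (SE 0.28, adjusted p = 0.00172). The call did not hold without CA3 replicate 4 (-0.77, adjusted p = 0.124), CA1 replicate 1 (-1.10, adjusted p = 0.0813), CA1 replicate 3 (-1.27, adjusted p = 0.0623) or CA3 replicate 2 (-1.24, adjusted p = 0.0615). Over all alternatives the edgeR or DESeq2 adjusted p ran from 9.22e-05 to 0.124. Between CA1 and CA2 the log2 fold change was -0.80 (95% interval -1.76 to 0.16, edgeR adjusted p = 0.291), and -0.77 with the block and separate columns (SE 0.31, adjusted p = 0.0795). Between CA2 and CA3 it was -0.50 (interval -1.35 to 0.35, edgeR adjusted p = 0.609), and 0.011 without CA3 replicate 4.

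Rfx3 passed in none of the 3 comparisons. Its log2 fold change was 0.11 in CA1 over CA2 (95% interval -0.40 to 0.63, edgeR adjusted p = 0.834), turning to -0.047 without CA2 replicate 1. In CA2 over CA3 it was 0.24 (interval -0.28 to 0.76, edgeR adjusted p = 0.715). In CA1 over CA3 it was 0.35 (interval -0.13 to 0.84, edgeR adjusted p = 0.303). With the replicate number as a block and all 16 columns as separate samples, so that repeated columns entered separately, the last of these was 0.43 and passed (SE 0.13, adjusted p = 0.0126), as it did without CA3 replicate 4, at 0.63 (adjusted p = 0.0370), within a range of 0.0126 to 0.704 over the alternatives.

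Leaving out CA3 replicate 3 changed none of these calls. The log2 fold changes in CA1 over CA3 were then 4.34 for Calb1, 2.07 for Pdyn, -0.93 for Rgs10, -1.51 for Prox1 and 0.32 for Rfx3. In CA2 over CA3 they were 2.19 for Calb1, 0.053 for Pdyn, -0.21 for Rgs10, -0.73 for Prox1 and 0.19 for Rfx3.

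**Figure D3:**
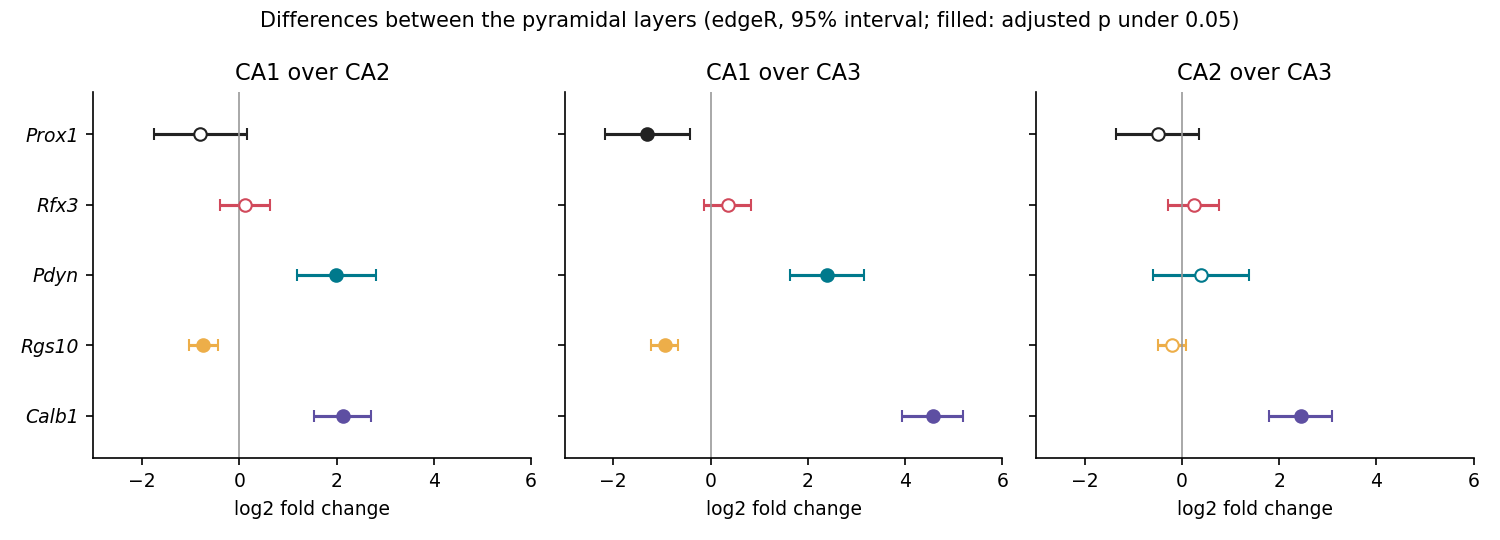
Log2 fold change of each gene between the pyramidal subfields, with 95% intervals and filled symbols where the edgeR adjusted p was under 0.05. Calb1 is filled in all 3 comparisons, Pdyn and Rgs10 in those of CA1 on opposite sides of 0, Prox1 in CA1 over CA3 only, and Rfx3 in none.

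The libraries themselves differed in ways that crossed subfields. Replicate 1 was the lowest library in all 4 subfields for Prox1 and Rfx3, 2 of the 5 genes, against 7.65% of all genes tested (1313) and 0 of 13 granule markers. DG replicate 1 was at the same time the highest DG library for Pdyn, Rgs10 and Calb1. CA3 replicate 4 was the highest CA3 library for 4 of the 5 genes, against 23.5% of genes tested (4028) and 5 of 13 granule markers. For the remaining gene, Calb1, CA3 replicate 2 was highest by a narrow margin, at 11.2 CPM.

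Set against the median of the other 3 CA3 libraries, CA3 replicate 4 was at 3.85-fold for Prox1, 1.71-fold for Rfx3, 4.72-fold for Pdyn, 1.10-fold for Rgs10 and 3.26-fold for Calb1. The difference amounted to 4.09% of the DG mean for Prox1, 3.50% for Rfx3, 2.48% for Pdyn, 1.01% for Rgs10 and 2.58% for Calb1. CA3 replicate 4 was thus above that median for 5 of the 5 genes, against 47.3% of genes tested, and for 10 of 13 granule markers, at a median ratio of 3.26 for the 5 genes and 1.28 for the markers. CA3 replicate 2 was likewise above the median of its others for 5 of 5 genes, against 51.0% of genes tested, and for 11 of 13 granule markers, at median ratios of 1.10 and 1.32. Of 4 unequal values, 2 always lie above the median of the other 3 and 2 below. That CA3 replicates 1 and 3 lay below for 5 of 5 genes (47.5% and 49.8% of genes tested) thus follows from replicates 2 and 4. It is the same pattern and no separate result. CA3 replicate 1 stood at a median ratio of 0.481 for the 5 genes. Among the granule markers 3 of 13 were above in this library, at a median ratio of 0.776. CA3 replicate 3 stood at ratios of 0.509 for Prox1, 0.906 for Rfx3, 0.490 for Pdyn, 0.961 for Rgs10 and 0.307 for Calb1. There 2 of 13 granule markers were above, at a median ratio of 0.783 among the markers.

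Summed over the 13 granule markers, the level was 96.4, 99.6, 99.9 and 103 CPM in CA1 replicates 1 to 4, and 103, 112, 96.8 and 118 CPM in the CA2 replicates. In CA3 it was 87.9, 111, 95.3 and 114 CPM, and in DG 1343, 1136, 1202 and 1122 CPM. The CA libraries thus stood at 7.18% to 9.60% of the DG mean, with CA3 replicate 1 lowest and CA2 replicate 4 highest. The most abundant marker was Lrrtm4 in each CA1 library and in CA3 replicates 1 to 3, and Cdh13 in each CA2 and DG library and in CA3 replicate 4. Nhlh1 was at 0 in all CA1 libraries, in CA2 replicates 1 and 3 and in CA3 replicate 1. Fst was at 0 in CA1 replicates 1 to 3, all CA2 libraries and CA3 replicate 4, Npnt in CA1 replicate 2, CA2 replicates 2 and 3 and CA3 replicate 4, and Plk5 in CA1 replicates 2 and 4. Whether the summed level has a part in the values of the 5 genes was not tested.

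**Figure D4:**
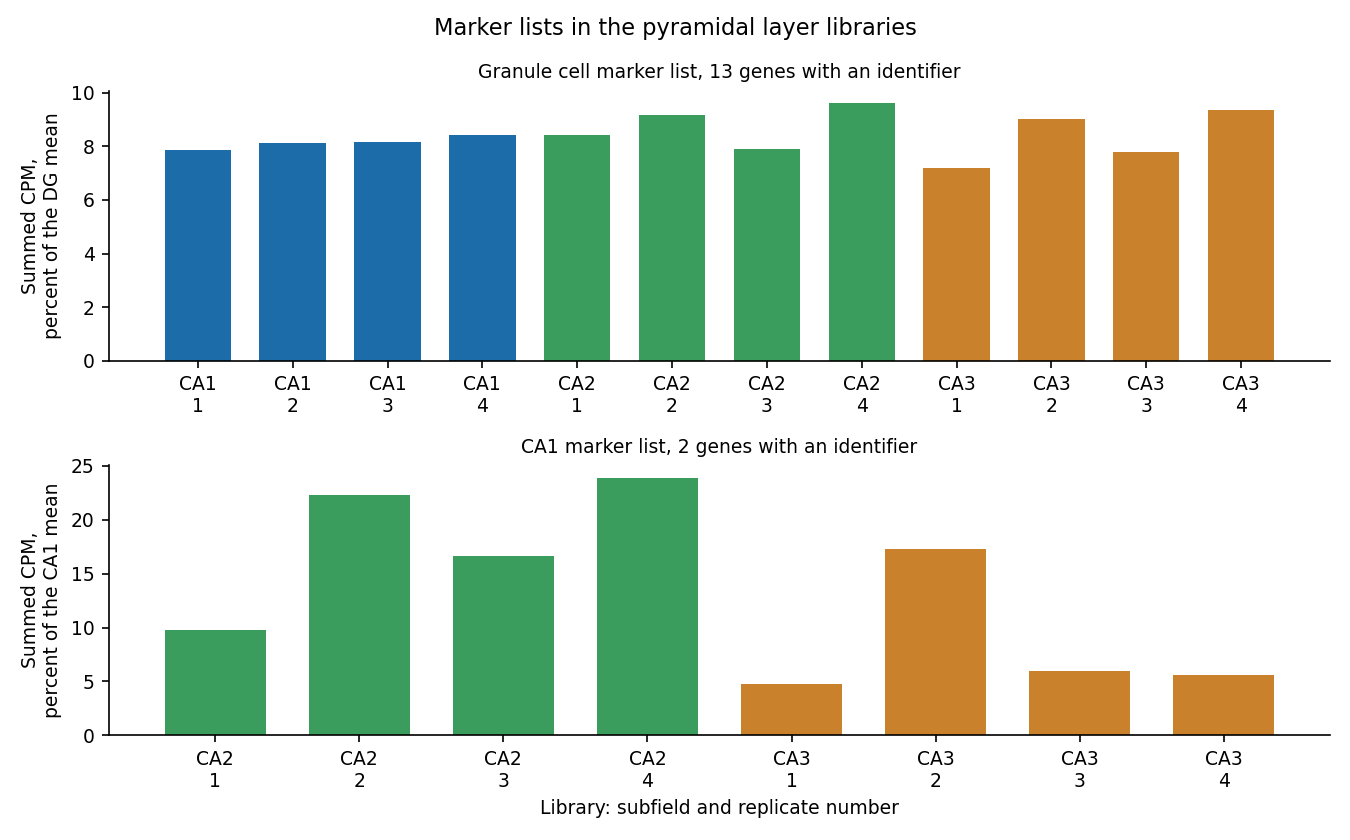
Bars give the summed CPM of the 13 granule markers in each CA library as percent of the DG mean, and of the CA1 markers in each CA2 and CA3 library as percent of the CA1 mean. The granule list lies between 7.18% and 9.60% in every CA library, while the CA1 list (Wfs1 and Pex5l) is at 17.3% in CA3 replicate 2 and at 4.76% to 5.94% in the other CA3 libraries.

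The granule markers were also compared between the pyramidal subfields. Between CA1 and CA3, 7 of 13 passed the edgeR test at an adjusted p of 0.05, against 24.8% of all genes, with Gabrd and Lrrtm4 higher in CA1 and C1ql2, Glis3, Plk5, Stxbp6 and Trpc6 lower. Between CA1 and CA2 3 of 13 passed, against 14.3%, and between CA2 and CA3 4 of 13, against 7.65%.

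The 2 matched CA1 markers were set beside Calb1 library by library. The CA1 markers Wfs1 and Pex5l summed to 48.6, 177, 60.6 and 57.2 CPM in CA3 replicates 1 to 4, where Calb1 was 1.98, 11.2, 3.39 and 11.1 CPM. Both were high in CA3 replicate 2, whereas in CA3 replicate 4 Calb1 was high and the CA1 markers were not. Wfs1 was at 107 CPM in CA3 replicate 2 against 8.67 to 13.8 CPM in the other CA3 libraries. Pex5l was at 69.8 CPM there against 39.9 to 47.1 CPM. In CA2 the sum was 99.9, 228, 169 and 243 CPM in replicates 1 to 4, with Calb1 and the markers both lowest in replicate 1. In the CA1 libraries the sum was 1071, 1044, 969 and 994 CPM, where Calb1 was 163, 144, 166 and 184 CPM. There Calb1 was highest in replicate 4 and the sum in replicate 1. In DG the sum was 32.0, 37.4, 44.1 and 33.7 CPM. Wfs1 was the more abundant in each CA1 and CA2 library and in CA3 replicate 2, Pex5l in the others, and neither was at 0 in any library. The part of these markers in the Calb1 values was not tested.

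**Figure D5:**
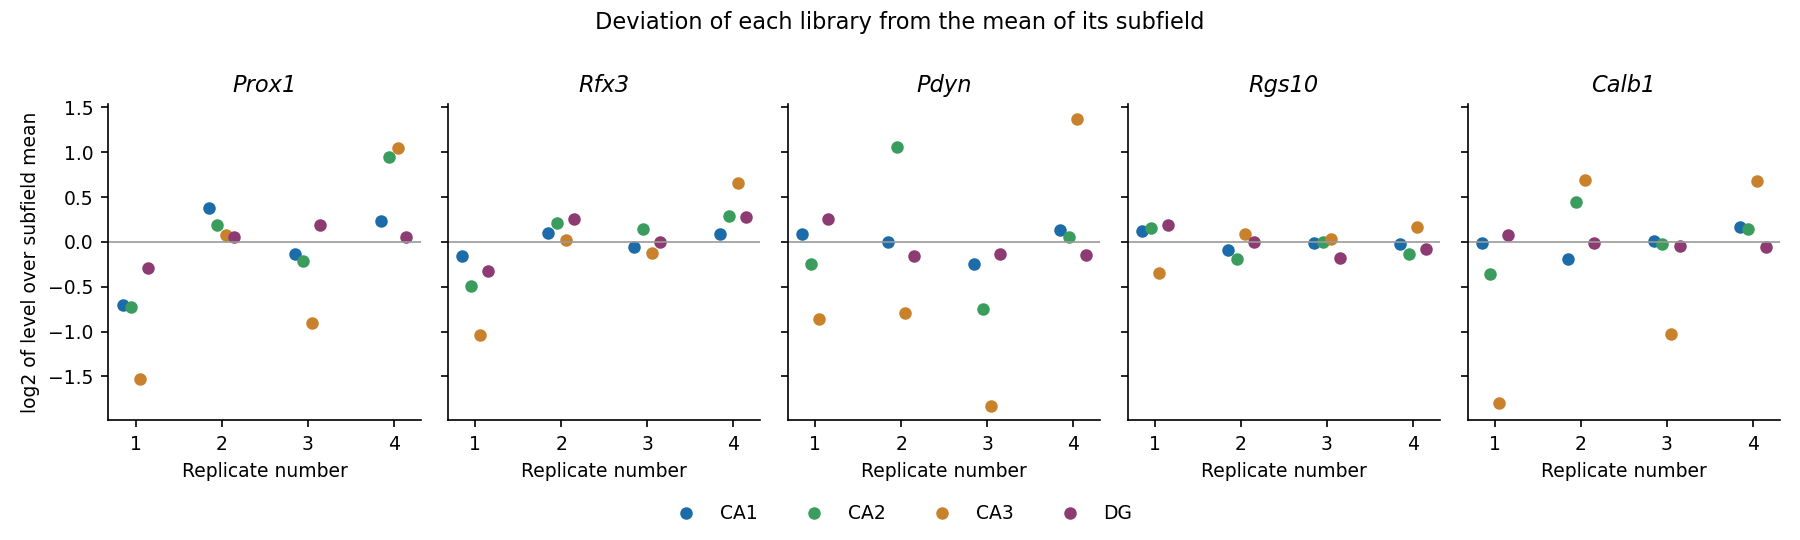
Log2 ratio of each gene's CPM in each library to its mean in that subfield. CA3 replicate 4 is above the mean for 5 of the 5 genes, the libraries numbered 1 are below it for Prox1 and Rfx3 in all 4 subfields, and Rgs10 spans the narrowest range, from -0.34 to 0.19.

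The columns counted as 1 sample were also compared gene by gene, for counting error only. In CA2, where an exact binomial test gave p under 0.05 for 4.48% of 11864 genes, 3 of the 5 genes fell under it. Prox1 held 29 counts in replicate 2 and 64 in replicate 4 (exact p = 0.0209), Calb1 216 and 228 (exact p = 0.0311), and Pdyn 23 and 15 (exact p = 0.0481). After adjustment over all genes each p was 1, and none passed. In DG the lowest exact p among the 5 was 0.172, for Rgs10.

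Relatives of the 5 genes could be matched only in part, all as genes that the study had chosen as subfield markers. Rfx2, the 1 matched gene of 9 listed for the RFX family, averaged 5.28 CPM in DG. It held 3, 1, 0 and 1 counts in CA1 replicates 1 to 4 and 6, 8, 6 and 9 counts in CA3. All 4 CA1 samples lay below all CA3 samples (edgeR adjusted p = 0.00759), with too few CA1 counts for a fold change to be given. Penk, the precursor of enkephalins and 1 of 3 opioid precursors listed, averaged 49.6 CPM in DG and 4.92, 6.66 and 4.21 CPM in CA1, CA2 and CA3, and unlike Pdyn it passed in none of the pyramidal comparisons (edgeR adjusted p from 0.0703 to 0.553).

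Of 20 RGS genes listed, Rgs9, Rgs13 and Rgs22 were matched. Rgs9 was at 3.001, 2.59, 3.02 and 3.10 CPM in CA1 replicates 1 to 4 and at 0.620, 0.520, 0.636 and 0.9755 CPM in the CA3 replicates. These did not overlap, and CA1 over CA3 gave a log2 fold change of 2.11 (SE 0.35, edgeR adjusted p = 9.97e-05), in a direction opposite to that of Rgs10. In CA2 over CA3 it was 1.82 (SE 0.38, edgeR adjusted p = 0.00303), with overlap. The CA3 values of Rgs9 rest on 5, 6, 6 and 6 counts and that of CA2 replicate 1 on 6, so the size of either fold change is uncertain. Rgs13, at 15.6 CPM in DG, held 35, 2, 15 and 2 counts in CA2 replicates 1 to 4, 3 or fewer in each CA1 library, and 0, 6, 0 and 3 counts in the CA3 replicates. It passed against CA1 and against CA3 (edgeR adjusted p = 0.00513 and 0.0124), but CA2 and CA3 overlapped, CA2 replicate 1 was far above the other CA2 libraries, and again no fold change is given at these counts. Rgs22 passed in none of the pyramidal comparisons. Paralogs and partners on the remaining lists matched 0 genes.

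Among the 5 genes, Pearson's r of log2 CPM over the 11 pyramidal samples was 0.853 for Pdyn with Calb1 (Spearman's rho 0.864), -0.787 for Rgs10 with Calb1 (rho -0.782) and -0.770 for Pdyn with Rgs10 (rho -0.682). Prox1 had r of 0.587 with Rgs10 (rho 0.564), 0.468 with Rfx3 (rho 0.536) and -0.130 with Pdyn (rho -0.264). These 11 points share rats and fall into 3 subfields, so the values describe subfield differences together with differences between libraries. Of the other 4 of the 10 pairs, Rfx3 had r of 0.632 with Calb1 (rho 0.427), 0.602 with Pdyn (rho 0.573) and -0.225 with Rgs10 (rho -0.218), and Prox1 had -0.297 with Calb1 (rho -0.309).

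The genes most like each of the 5 were sought among the 288 with a symbol, by Pearson's r of log2 CPM. Over the 11 pyramidal samples Calb1 was most like Met (r = 0.969), Htr5b (0.961) and Htr1b (0.957). Pdyn was most like Mgam (0.908), Pde1b (0.891) and Grm2 (0.876), and Rgs10 like Plk5 (0.904), Unc5d (0.895) and Calml4 (0.888). Prox1 was most like Piezo2 (0.889), Glis3 (0.859) and Fat4 (0.836), and Rfx3 like Dgkh (0.850), Tyms (0.805) and Pitpnm2 (0.804). Some of these genes held few counts. Of the 12 CA libraries, 4 held 3 counts or fewer of Plk5, 3 of Grm2, and 2 each of Htr1b, Calml4 and Glis3. For Mgam and Piezo2 it was 1 library each. Their r thus takes in values near the floor. These are ranks among 288 preselected markers. Among all genes tested, 46 genes for Prox1, 175 for Rfx3, 140 for Pdyn, 258 for Rgs10 and 68 for Calb1 had an r at or above that of the last gene named. Met shared the pyramidal order of Calb1 but not its DG level, at means of 123, 21.2 and 3.86 CPM in CA1, CA2 and CA3 and 0.390 CPM in DG. Its CA3 libraries 1 to 4 were at 1.49, 10.7, 1.27 and 1.95 CPM, so that replicate 2 carried the CA3 mean.

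Over all 14 samples, r also takes in the gap between the 3 DG samples and the CA samples. The share of r that comes from this gap was not tested. The closest genes were then Tiam1 (0.986), AABR07068161.1 (0.986) and Fat4 (0.985) for Prox1, and Ryr1 (0.982), Ccdc85a (0.981) and Il1rap (0.979) for Rfx3. For Pdyn they were Mgam (0.979), Grm2 (0.973) and Pde1b (0.968), and for Rgs10 Stxbp6 (0.984), AABR07068161.1 (0.983) and Fat4 (0.9799). Calb1 had lower values, with Usp13 (0.872), Gabrd (0.847) and Rgs9 (0.847), and 365 of all genes tested reached the last of these, against 3 to 14 for the other 4 genes. Fat4, near both Prox1 and Rgs10, rose through CA1, CA2 and CA3 with means of 40.9, 57.8 and 92.0 CPM against 744 CPM in DG.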

How the data were processed

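Read counts per Ensembl gene, as deposited, came from 16 libraries. Per the study's methods, the authors aligned 100-base read pairs from a stranded total RNA kit with STAR to Rnor6, a rat assembly, and neither the counting program nor its strand setting is given, so reads of an overlapping antisense gene cannot be told apart. The authors' 6 DESeq2 tables, which hold fold changes and p-values of their own comparisons, were not used. The members and lists were chosen with earlier results of these data known. Genes with more than 10 counts in all were kept (17174 of 32883). Counts were scaled by TMM in edgeR 4.0.16 (R 4.3.3, limma 3.58.1) and fitted by quasi-likelihood with subfield as the only term, repeated columns summed (14 samples). P-values were Benjamini-Hochberg adjusted over all genes tested, with 0.05 as the threshold. CPM were not divided by gene length, and means average the repeated columns. Log2 CPM used a prior count of 2.

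Genes named are the 5 members, list genes passing with a log2 fold change above 1 in size in any comparison or the highest mean of their list, and the 3 genes most correlated with each member. Granule markers, and the CA1 markers beside Calb1, were named after their values were seen. Motifs were searched in RefSeq promoter sequences (GRCr8). Alternatives were DESeq2 1.42.0, median-of-ratios scaling, no filter, filterByExpr, all 16 columns as separate samples, a replicate block, fits to single comparisons and leaving out each library. Pairing by rat comes from the study's methods, with 4 rats, and from the number shared by the labels, and is uncertain for the repeated columns. Deviations from the subfield mean over 4934 genes correlated between libraries of the same number at 0.703 to 0.772 for replicate 1, -0.122 to 0.334 for replicate 2, -0.172 to 0.462 for replicate 3 and 0.250 to 0.618 for replicate 4. Figures were drawn with Python 3.11.15 and matplotlib 3.10.9.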

Additional observations from a re-analysis of the deposited data

Results flagged for a closer look

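In groups of 4 samples, a value was singled out when its gap to the nearest other sample, divided by the range of the group, exceeded the 95% critical value of Dixon's test. Of 22 groups tested (CA1 and CA3, for the 5 members, the relatives Rfx2, Penk, Rgs9, Rgs13 and Rgs22, and the summed level of the granule markers), 2 passed, and chance alone singles out about 1 in 20 groups. Both were in CA3 replicate 4. Pdyn was at 5.85 CPM there against 1.24, 1.30 and 0.636 CPM in CA3 replicates 1 to 3. Rfx2 was at 1.46 CPM, from 9 counts, against 0.744, 0.693 and 0.636 CPM, from 6, 8 and 6 counts. The cause of either value was not tested.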

How the results depend on the processing

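Counted over all alternatives, 350 of 360 log2 fold changes of the 5 genes kept their direction and their side of the threshold, and 268 of 270 percents of the DG mean moved by less than 1 SD. The count of genes past the threshold stayed within 1.5 times the reported count under 23 of 24 alternatives between CA1 and CA2, 24 of 24 between CA1 and CA3 and 23 of 24 between CA2 and CA3. Every call of Calb1, Pdyn and Rgs10 between CA1 and the other pyramidal subfields, and of Calb1 between CA2 and CA3, was the same under each alternative.

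With the replicate block and all 16 columns as separate samples, 3850 genes passed between CA1 and CA2 and 2615 between CA2 and CA3, and Rfx3 in CA1 over CA3 passed at a log2 fold change of 0.43 (SE 0.13). The block changed no other call of the 5 genes. An alternative chosen after seeing the data left out the 4 libraries numbered 1 together, where Rfx3 in CA1 over CA2 turned from 0.11 to -0.0011.

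Leaving out each library in turn gave log2 fold changes for Prox1 of -1.58 to -0.77 in CA1 over CA3, where 4 of the libraries left out took the call away, and of -0.82 to 0.011 in CA2 over CA3. For Rfx3 they ran from 0.12 to 0.63 in CA1 over CA3 and from -0.047 to 0.17 in CA1 over CA2. For Pdyn in CA2 over CA3 they ran from 0.053 to 1.26. The CA1 level as percent of the DG mean ran from 5.98 to 6.81 for Rfx3 and from 4.73 to 5.38 for Rgs10. The cause of these changes was not tested.

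In the CA3 libraries Pdyn held the fewest counts of the 5 genes, at 6 to 36. Every interval is limited by 3 or 4 samples per subfield.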
